A study of Mus musculus with 6 samples.

Results

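The transcripts described here encode the proteins that carry a photon signal in rods from the activated receptor to the ion channel of the outer segment. They were found by gene symbol in the deposited table of mouse retina, and all 9 of the 9 symbols sought were among its 22731 genes: Gnat1, Gnb1, Gngt1, Pde6a, Pde6b, Pde6g, Cnga1, Cngb1 and Slc24a1. In a rod, the light-activated receptor loads GTP onto the α-subunit of transducin, which leaves its βγ partner and relieves the inhibition of the phosphodiesterase PDE6. PDE6 breaks down cyclic GMP, the cyclic-nucleotide-gated (CNG) channel closes, and the exchanger that removes calcium goes on working, so the cell hyperpolarizes and its calcium falls. Loss of single components of this chain is a known cause of stationary night blindness or rod degeneration.

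The mice with Dicer1 removed in rods (conditional knockout, cKO) were homozygous for the floxed Dicer allele and carried iCre75, a Cre transgene known to be driven by a rod-specific promoter. Control littermates had the same floxed alleles without iCre75, so the floxed locus was shared and the transgene was not. Dicer1 encodes the ribonuclease that makes mature microRNAs. Each group had 3 RNA-seq libraries, cKO replicates 2, 3 and 4 and control replicates 1, 2 and 3, each from pooled retinal RNA of 4 mice aged 4 weeks. Both groups were on a mixed background of C57BL/6J and SJL. SJL mice are known to carry the rd1 allele of Pde6b, and the labels do not give the Pde6b genotype of the animals. In whole retina the number of rods and their RNA both count: fewer rods and less RNA per rod cannot be told apart, and other cells that keep Dicer1 contribute to every value.

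All libraries had the transcripts of a retina rich in rods. The 9 rod markers used, among them Rom1, Nrl and Sag, summed to between 7200 and 7722 RPKM (read counts scaled to the length of the gene model and to library size) in cKO and between 7011 and 8066 RPKM in controls. The 10 bipolar markers summed to between 422 and 499 RPKM in cKO and between 400 and 438 RPKM in controls, and the 10 Müller glia markers to between 2046 and 2088 RPKM in cKO and between 2069 and 2310 RPKM in controls. The 10 pigment epithelium markers summed to between 302 and 398 RPKM in cKO and between 290 and 358 RPKM in controls. The α- and β-globin genes Hba-a1 and Hbb-b1 were listed at 0 in every library. How reads with multiple matches were handled is not stated, so these zeros do not show that blood was absent. Lens crystallins varied most, between 287 and 3339 RPKM in cKO and between 494 and 4482 RPKM in controls for 10 lens genes. Whole reads worked back from the RPKM steps gave between 12336599 and 29007473 reads in genes for cKO libraries and between 27204998 and 32935029 for control libraries. Dicer1 itself was at 8.02, 7.06 and 7.90 RPKM in cKO and 8.48, 8.77 and 8.33 RPKM in controls, with no overlap between groups and no call (log2 fold change −0.15, limma adjusted p = 0.931), and a gene-level value in whole retina is a weak check of genotype.

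Since Dicer loss removes microRNAs from rods, the 3′ untranslated regions of the 9 transcripts were searched for sites of the cluster of microRNAs long known to be abundant in photoreceptors, miR-183, miR-96 and miR-182. Their mature sequences, from RefSeq (GRCm38.p6, chromosome 6), are shown because their seeds define the sites sought. Bases 2 to 8, the seed, are in capitals, and miR-96 and miR-182 share all seed bases but the last.
mmu-miR-183-5p: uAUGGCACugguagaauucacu
mmu-miR-96-5p: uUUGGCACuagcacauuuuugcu
mmu-miR-182-5p: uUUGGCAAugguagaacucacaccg
The matching 7-base DNA sites are GTGCCAT for miR-183, GTGCCAA for miR-96 and TTGCCAA for miR-182. The mature miRNAs lie on the minus strand, miR-183 at chr6:30169711-30169732, miR-96 at chr6:30169506-30169528 and miR-182 at chr6:30165962-30165986. None of the 9 transcripts held any of the 3 sites in its longest annotated 3′ untranslated region (GENCODE M21), whereas 3115 of 11038 tested genes with such a region, or 28.2%, held at least 1. Taken singly, the sites occurred in 11.5%, 10.4% and 12.9% of those genes. The regions searched ran from 179 bases in Pde6b to 2149 bases in Cngb1, with 1111 in Gnat1, 1811 in Gnb1, 656 in Gngt1, 1715 in Pde6a, 473 in Pde6g, 1584 in Cnga1 and 1560 in Slc24a1, against a median of 1228 over the genes searched. This is a description of letters in annotated regions. It says nothing of sites in other places or for other microRNAs.

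No transcript of the cascade passed the test between cKO and control retinas, and the groups of libraries overlapped for each of them. Over the 12599 genes tested, those averaging 1 RPKM or more, limma with Benjamini-Hochberg adjustment called 0.00794% in either direction at an adjusted p under 0.05, which is 1 gene, Prm1, and 0 of the 9 members. At an unadjusted p under 0.05 it called 5.71% of tested genes and again 0 of the 9, and limma voom on recovered reads also called 0 of the 9. The groups of libraries stood apart without overlap in 11.7% of tested genes (cKO above in 5.91%, cKO below in 5.78%) and in 0 of the 9. By mean log2 value cKO was below control for 7 of the 9 and above it for 2, and their median log2 fold change was −0.04, against −0.01 over all genes tested.

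Transducin α, encoded by Gnat1 (chromosome 9, 107674474 to 107679712 in GRCm38), is the rod G protein subunit that binds GTP and activates PDE6. Gnat1 was at 5784, 6686 and 6069 RPKM in cKO and at 5778, 5888 and 6860 RPKM in controls, from 202711 to 529225 reads in cKO and 439286 to 613804 in controls. The libraries of both groups were interleaved, and in each of them this was the gene with the second highest RPKM. The means were 6180 ± 461 RPKM in cKO and 6175 ± 595 RPKM in controls (SD, n = 3 each), and the log2 fold change on log2(RPKM + 0.5) was 0.00 ± 0.13 (SE; limma adjusted p = 0.998). Its 95% interval ran from −0.30 to 0.30, or from 0.814 to 1.23 times the control level.

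Gnb1 (chromosome 4, 155491361 to 155559269) encodes the β-subunit of rod transducin and is used by many other cells as well. It was at 1023, 1140 and 1043 RPKM in cKO and at 1021, 1070 and 1206 RPKM in controls. Again no group lay to one side, and the means differed by −30.2 RPKM (log2 fold change −0.04 ± 0.11 SE, limma adjusted p = 0.997). Gnb1 followed Gnat1 closely from library to library, with a Gnb1 to Gnat1 ratio of 0.177, 0.171 and 0.172 in cKO and 0.177, 0.182 and 0.176 in controls.

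Gngt1 (chromosome 6, 3993792 to 3997436) encodes the γ-subunit that anchors rod transducin to the disc membrane through a farnesyl group. It was at 130, 156 and 232 RPKM in cKO and at 182, 171 and 203 RPKM in controls, from 3068 to 5383 reads in cKO and 6047 to 7915 in controls. Both the lowest and the highest of the 6 libraries were cKO libraries, replicates 2 and 4, and the spread within cKO, a coefficient of variation of 30.7%, was the widest of the 9 genes, against 8.75% in controls. Its log2 fold change was −0.14 ± 0.20 (SE), not past the threshold (limma adjusted p = 0.997), and the interval, −0.60 to 0.32, was also the widest. Leaving out cKO replicate 4 gave −0.38 and leaving out cKO replicate 2 gave 0.04.

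By the deposited RPKM the 3 transducin subunits were far from equal in RNA, although the protein is a trimer with a single copy of each. Such a comparison depends on the lengths of the gene models. Those worked back from the RPKM steps were 2208 bp for Gnat1, 3143 bp for Gnb1 and 963 bp for Gngt1. All their GENCODE M21 exons together cover 3029, 4268 and 3515 bp. The Gngt1 level was 0.0225, 0.0233 and 0.0382 of the Gnat1 level in cKO and 0.0316, 0.0290 and 0.0296 in controls. For this ratio the exact two-sided permutation p was 0.6, or 0.744 adjusted over the 17 within-library ratios compared, and with 3 against 3 libraries no such p can go below 0.1.

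**Figure D1:**
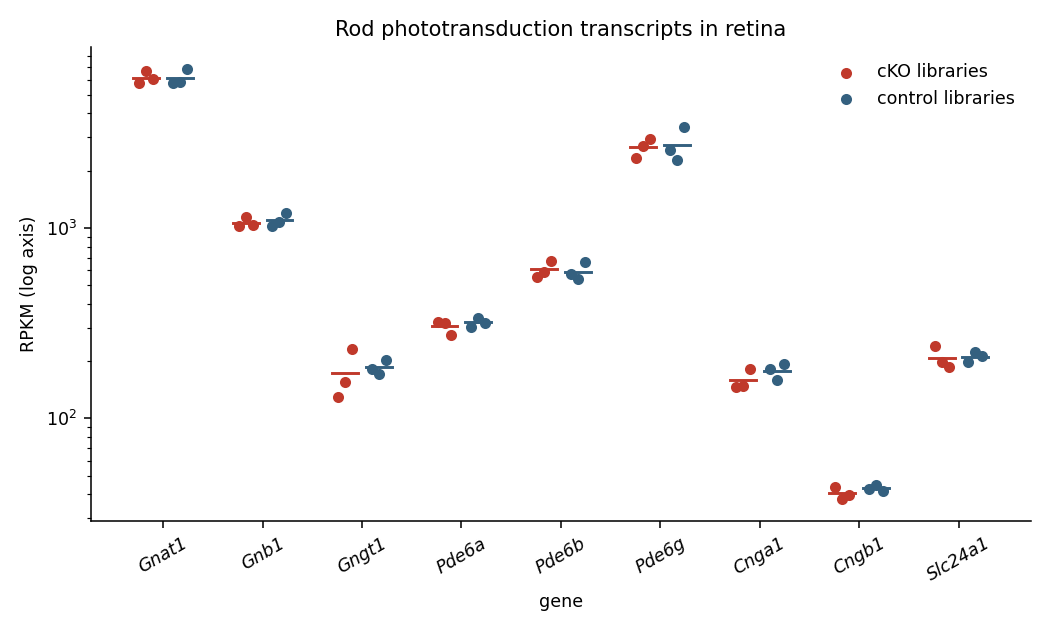
RPKM (log axis) of the 9 transcripts in the 3 cKO libraries (red, left) and 3 control libraries (blue, right), with a bar at each group mean. The groups overlap for every gene, and levels run from 37.6 RPKM for Cngb1 to 6860 RPKM for Gnat1.

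PDE6 of rods has catalytic α- and β-subunits, encoded by Pde6a and Pde6b, and small inhibitory γ-subunits, encoded by Pde6g. Pde6a (chromosome 18, 61220315 to 61289924) was at 321, 318 and 274 RPKM in cKO and at 303, 337 and 319 RPKM in controls. Its lowest library was cKO replicate 4, while the other two cKO values lay within the control range. On the log2 scale cKO differed by −0.07 ± 0.11 (SE), with an interval of −0.32 to 0.17 (limma adjusted p = 0.997).

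Pde6b (chromosome 5, 108388391 to 108432397) was at 556, 590 and 673 RPKM in cKO and at 573, 537 and 661 RPKM in controls. Its highest library was cKO replicate 4, the one in which Pde6a was lowest. The means were 606 ± 60.2 RPKM in cKO and 590 ± 63.3 RPKM in controls (SD, n = 3 each; log2 fold change 0.04 ± 0.12 SE, limma adjusted p = 0.997). All 6 libraries were within 1.25 times of each other.

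Pde6g (chromosome 11, 120447605 to 120453500) was at 2325, 2710 and 2936 RPKM in cKO and at 2570, 2272 and 3396 RPKM in controls. It had the third highest RPKM in every library, and both extremes were control libraries. The fitted log2 difference was −0.03 ± 0.17 (SE), with an interval of −0.44 to 0.37 (limma adjusted p = 0.997).

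By the deposited RPKM, Pde6a RNA was lower than Pde6b RNA in every library, although 1 of each subunit goes into the enzyme. Such a comparison depends on the lengths of the gene models. Those worked back from the RPKM steps were 4198 bp for Pde6a, 2816 bp for Pde6b and 899 bp for Pde6g. All their GENCODE M21 exons together cover 4688, 5026 and 2317 bp. Whether Pde6a stays below Pde6b with other lengths was not tested. The Pde6a to Pde6b ratio was 0.578, 0.538 and 0.407 in cKO and 0.529, 0.627 and 0.483 in controls. Pde6g exceeded Pde6b in every library, by 4.18, 4.59 and 4.36 times in cKO and by 4.48, 4.23 and 5.14 times in controls. The groups overlapped in both ratios, with exact permutation p of 0.7 and 0.6 (0.744 each after adjustment over 17).

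The rod CNG channel is built from CNGA1, the subunit that forms the conducting pore, and CNGB1, which modulates it and tethers it to the disc rim. Cnga1 (chromosome 5, 72603696 to 72644275) was at 147, 148 and 182 RPKM in cKO and at 181, 160 and 193 RPKM in controls. The values for cKO replicates 2 and 3 lay below all 3 controls and that for cKO replicate 4 did not. Its log2 fold change, −0.17 ± 0.12 (SE), was the furthest from 0 of the 9 and had the smallest unadjusted p, 0.207 (limma adjusted p = 0.972). The interval, −0.45 to 0.11, holds levels from 0.731 to 1.08 times the control. Leaving out 1 library gave −0.27 (without cKO replicate 4) to −0.11 (without control replicate 3). Gngt1 was further from 0 than Cnga1 without cKO replicate 4, at −0.38, and both were at −0.15 without control replicate 1. Without cKO replicate 2, Cngb1 (−0.15) and Slc24a1 (−0.14) were further from 0 than Cnga1 (−0.12). Without control replicate 3, Pde6g (0.13) and Pde6b (0.12) were further from 0 than Cnga1.

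Cngb1 (chromosome 8, 95239045 to 95306585) was the least abundant of the 9, at 43.9, 37.6 and 39.8 RPKM in cKO and 42.5, 44.9 and 41.6 RPKM in controls. The cKO libraries 3 and 4 lay below the controls and cKO replicate 2 within their range (log2 fold change −0.09 ± 0.09 SE, limma adjusted p = 0.995), and leaving out 1 library gave −0.15 (without cKO replicate 2) to −0.04 (without cKO replicate 3). The locus is also known to make the shorter soluble GARP proteins of rods, and the gene-level value cannot separate them. The length recovered from the RPKM steps was 8196 bp, against 9355 bp for all its GENCODE M21 exons together. For Cnga1 the recovered length was 2738 bp, against 6327 bp. The Cngb1 to Cnga1 ratio was 0.299, 0.254 and 0.219 in cKO and 0.235, 0.280 and 0.215 in controls.

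Slc24a1 (chromosome 9, 64922861 to 64951607) encodes the rod exchanger that moves calcium and potassium out in exchange for sodium. It was at 240, 198 and 186 RPKM in cKO and at 197, 224 and 212 RPKM in controls, with both extremes in cKO. The fitted log2 difference was −0.03 ± 0.12 (SE; limma adjusted p = 0.997), and the exact permutation p for the difference in RPKM was 1.

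Across the 9 intervals of this fit, the lowest limit was 0.658 times control, for Gngt1, and the highest 1.29 times, for Pde6g. The widths depend on the filter through the fitted variance trend. With no filter on low genes the SE was 0.54 for Gnat1 and 0.35 for Pde6g, against 0.13 and 0.17 here, so their intervals would be wider than those given, and with no variance trend it was 0.10 for Gnat1 and 0.16 for Pde6g. Leaving out 1 library turned the sign for 7 of the 9, and only Cnga1 and Cngb1 were lower in cKO in every alternative run, neither of them past the threshold. None of the 9 passed in any of the 17 alternatives. The smallest adjusted p, 0.0709, belonged to Gngt1 in the fit with a replicate block.

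**Figure D2:**
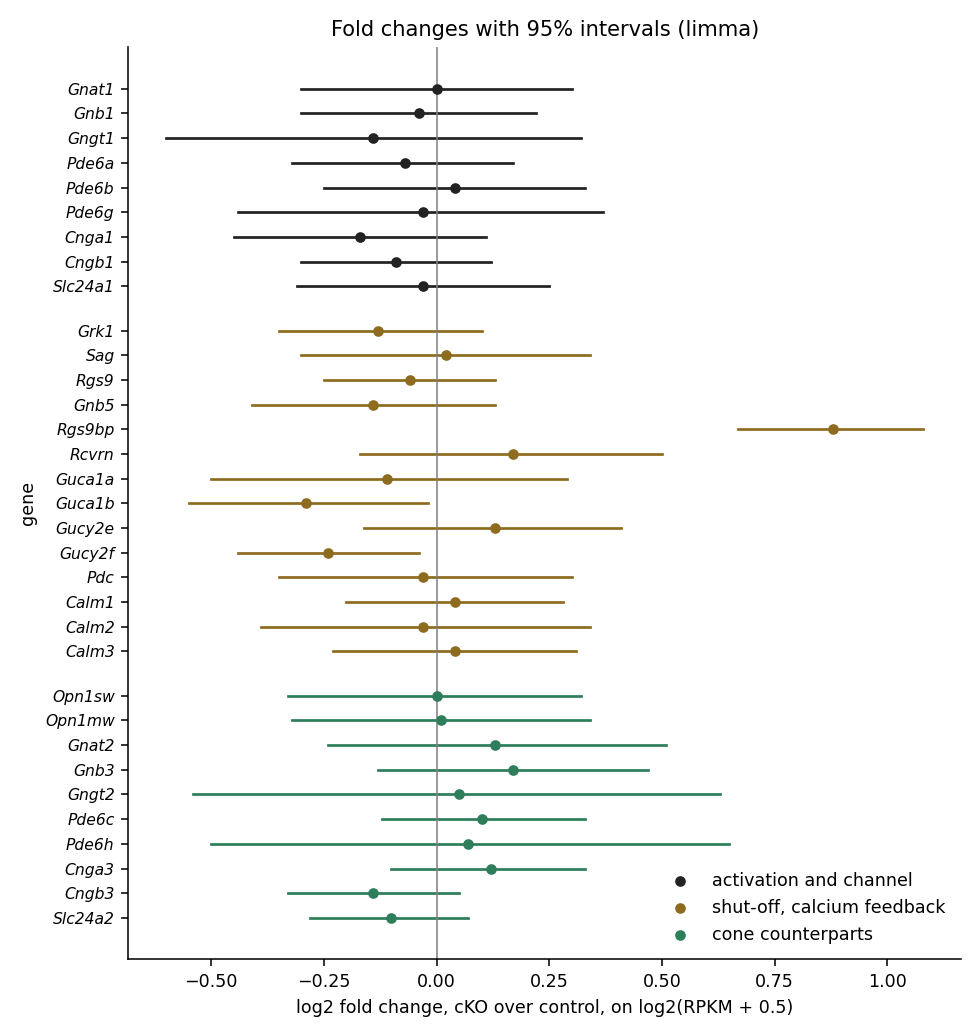
Log2 fold change of cKO over control on log2(RPKM + 0.5), with 95% limma intervals, for the 9 activation and channel genes (black), the shut-off and calcium feedback genes (brown) and the cone counterparts (green). The intervals of all 9 activation and channel genes include 0, and Rgs9bp stands alone at 0.88.

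In control replicate 3, 8 of the 9 members lay above their own means, with a median deviation of 0.15 on the log2 scale, against 0.04 over all tested genes. In each of the other 5 libraries 3 or 4 of the 9 did. In cKO replicates 2 and 4 and in control replicate 2 the members with short and with long gene models deviated in opposite directions (classes of length chosen after seeing the data). Gngt1 and Pde6g, with recovered models of 963 and 899 bp, were 0.44 and 0.20 below their own log2 means in cKO replicate 2 and 0.40 and 0.13 above them in cKO replicate 4. The long genes Pde6a (4198 bp), Slc24a1 (5213 bp) and Cngb1 (8196 bp) went the other way, between 0.04 and 0.20 above their means in cKO replicate 2 and between 0.07 and 0.18 below in cKO replicate 4. In control replicate 2 Gngt1 and Pde6g were 0.04 and 0.24 below their means and the long genes between 0.10 and 0.11 above. In control replicate 3 Gngt1 and Pde6g were 0.20 and 0.34 above, with the long genes between −0.00 and 0.03. In cKO replicate 3 there was no such division. Gngt1 was then at −0.17, Pde6g at 0.02 and the long genes between −0.15 and 0.03. Among all tested genes, the 1044 with models under 1000 bp had a median deviation of −0.23 in cKO replicate 2 and 0.22 in cKO replicate 4. In control replicates 2 and 3 their median deviation was −0.17 and 0.20. Genes over 4000 bp, 3720 in number, had median deviations between −0.03 and 0.03 in all libraries. Libraries of both genotypes lay at each end.

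With each library's trend on model length removed, an alternative chosen after seeing the data, the standard errors of the 9 fell to between 0.07 and 0.11. Gngt1 was then at −0.12 ± 0.11 and Pde6g at −0.00 ± 0.09. Cnga1, with a model of 2738 bp, had the largest remaining difference at −0.18 ± 0.09 (SE), which did not pass (limma adjusted p = 0.664).

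**Figure D3:**
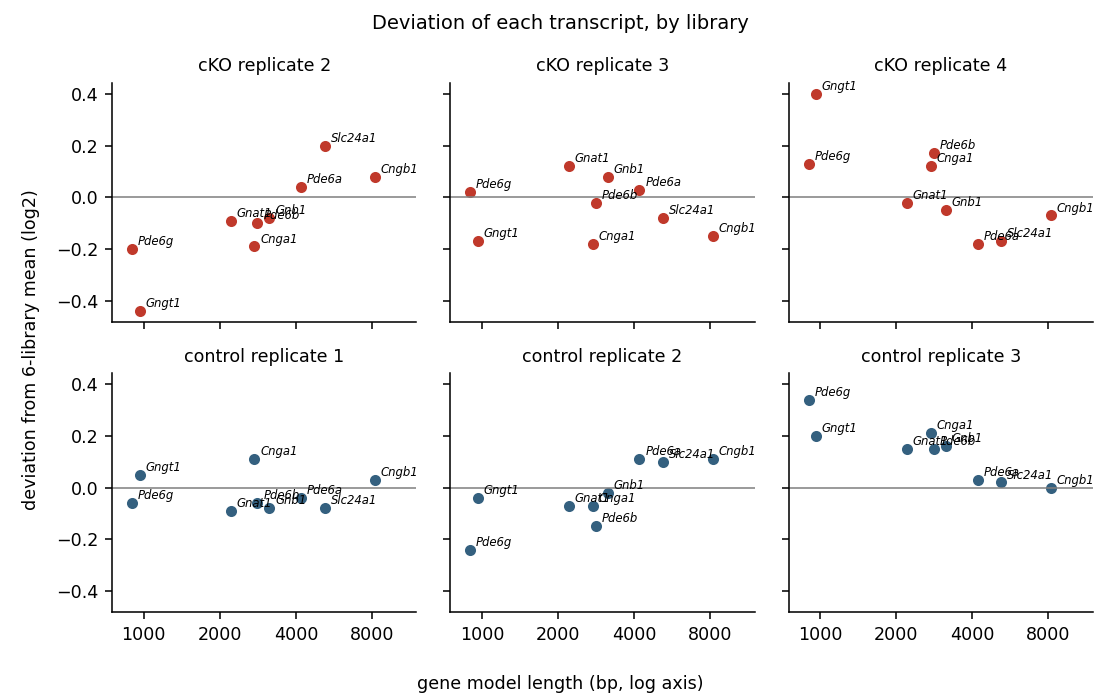
Deviation of each of the 9 transcripts from its own mean over the 6 libraries (log2) against the gene model length recovered from the RPKM steps (bp, log axis), a panel per library, cKO above and control below. The short models Gngt1 and Pde6g lie at −0.44 and −0.20 in cKO replicate 2 and at 0.40 and 0.13 in cKO replicate 4, and at −0.04 and −0.24 in control replicate 2 and 0.20 and 0.34 in control replicate 3.

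As a description over 6 libraries, in which all members of a library share its depth and its deviation with length, 21 of the 36 pairs of members had a Pearson r above 0, from −0.73 for Gngt1 with Slc24a1 to 0.96 for Gnat1 with Gnb1. Pde6b and Pde6g had r = 0.92, and Pde6a and Pde6b had r = −0.69. Among 1046 other genes averaging 50 RPKM or more, those most like the mean of the 9 were Gltscr2 (r = 0.985), Guca1a (0.985), Gnb5 (0.973), Vax2os1 (0.972) and Pkig (0.971). Guca1a encodes a calcium sensor of guanylate cyclase and Gnb5 a β-subunit in the complex that shuts transducin off. Guca1a and Gnb5 were highest in control replicate 3, at 1316 and 347 RPKM, and so were Gltscr2, Vax2os1 and Pkig. All were picked for following the mean of the 9, which was itself highest in that library. It was also the highest library for 4 of the 9 members.

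Each rod gene was next set against the gene taken as its cone counterpart, as a ratio within a library. Such a ratio does not depend on how the library was scaled. Where the model lengths differ it can still carry the library's deviation with length, and that part was not tested. By the deposited RPKM, rod transcripts exceeded these counterparts in all 9 pairs and all 6 libraries. How large such a ratio is depends on the model lengths, and other lengths were not tried. The mean excess was widest for transducin α, with Gnat1 over Gnat2 at 49.1, 48.1 and 38.2 in cKO and 52.7, 50.6 and 44.4 in controls, and narrowest for the γ-subunits, with Gngt1 over Gngt2 at 1.98, 1.80 and 1.82 in cKO and 2.06, 2.50 and 1.87 in controls. Gngt2 was at 65.7, 86.6 and 127 RPKM in cKO and 88.7, 68.2 and 109 RPKM in controls, lowest and highest in the same cKO libraries as Gngt1. The SD of the Gngt1 to Gngt2 ratio was 0.0961 in cKO and 0.327 in controls. Slc24a1 exceeded Slc24a2, used here as its cone counterpart, 47.9, 40.5 and 41.2 times in cKO and 37.2, 42.5 and 42.4 times in controls. In cKO replicate 4 this ratio was above Gnat1 over Gnat2. Which cells of the retina supply Slc24a2 was not tested.

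Of these 9 rod-to-cone ratios, 7 were lower in cKO on average, and the groups did not overlap in 3 of all 17 ratios. Cnga1 over Cnga3 was 25.0, 30.9 and 33.0 in cKO and 34.9, 33.3 and 40.8 in controls, a log2 difference of −0.30. Gnb1 over Gnb3 was 4.20, 4.02 and 3.43 in cKO and 4.49, 4.67 and 4.25 in controls (−0.21), and Pde6b over Pde6c was 23.3, 22.7 and 23.3 in cKO and 23.6, 23.4 and 25.6 in controls (−0.07). Each had an exact two-sided permutation p of 0.1, the smallest possible, and an adjusted p of 0.567 over the 17, so none passed. All 3 differences kept their sign but became smaller by over 1.5 times without a single library: −0.18 for Cnga1 over Cnga3 without cKO replicate 2, −0.12 for Gnb1 over Gnb3 without cKO replicate 4 and −0.026 for Pde6b over Pde6c without control replicate 3. Gnb3 is also used by bipolar cells, whose markers were between 422 and 499 RPKM in cKO and between 400 and 438 RPKM in controls, and the part of these cells in that ratio was not tested. Cnga3 rests on low levels, 5.39 ± 0.550 RPKM in cKO and 4.91 ± 0.255 RPKM in controls (SD, n = 3 each).

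**Figure D4:**
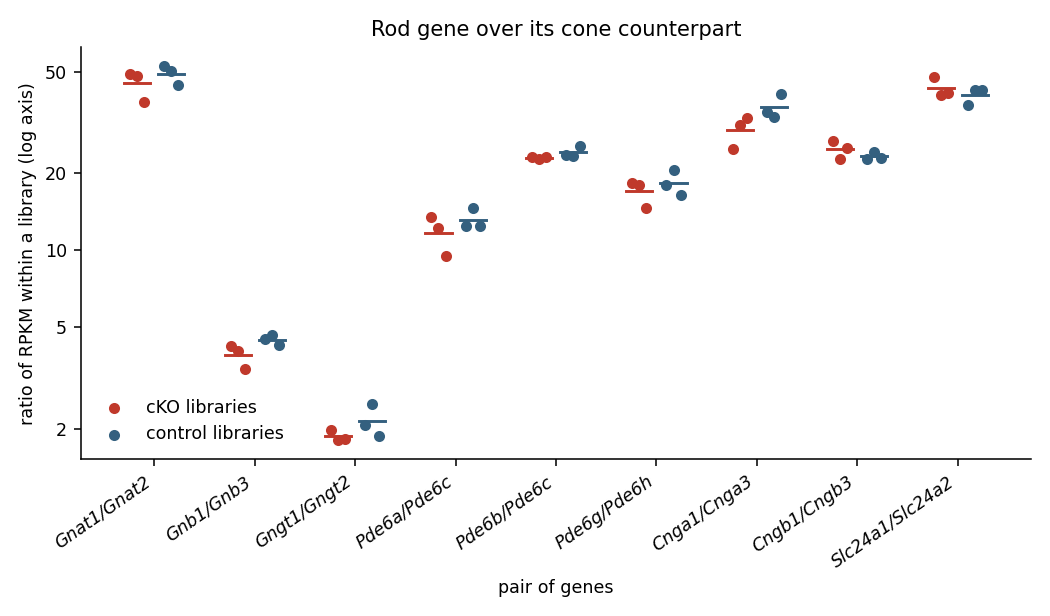
Ratio of RPKM of each rod gene to its cone counterpart within a library (log axis), for 3 cKO libraries (red, left) and 3 control libraries (blue, right), with a bar at each group mean. The ratios run from 1.80 for Gngt1 over Gngt2 to 52.7 for Gnat1 over Gnat2, and the groups stand apart for Gnb1 over Gnb3, Pde6b over Pde6c and Cnga1 over Cnga3.

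The genes that act around these steps also gave 0 calls at an adjusted p under 0.05. Of the 14 genes for receptor and transducin shut-off and for calcium feedback, cKO was above control in 6 and below it in 8. Their median log2 fold change was −0.03. The unadjusted limma p was under 0.05 for 3 of the 14, against 5.71% of tested genes. Groups stood apart with cKO above in 1 and below in 3 of the 14, against 5.91% and 5.78% of tested genes. Rcvrn, which encodes the calcium sensor recoverin and was the most abundant of them, was at 1461, 1838 and 1954 RPKM in cKO and at 1549, 1404 and 1700 RPKM in controls. The groups overlapped, with a log2 fold change of 0.17 ± 0.15 (SE; limma adjusted p = 0.984). Rgs9bp, whose product anchors the complex that ends transducin's activity, was the nearest to the threshold with 259, 241 and 259 RPKM in cKO and 131, 141 and 141 RPKM in controls (log2 fold change 0.88 ± 0.09 SE, limma adjusted p = 0.0692). It passed with genes averaging under 5 RPKM left out, under median-of-ratios scaling, with no variance trend, in limma voom and with the length trend removed. Gucy2f, a guanylate cyclase that restores cyclic GMP, had the smallest p in the other direction, with 9.97, 8.97 and 9.54 RPKM in cKO and 11.8, 11.7 and 10.3 RPKM in controls (limma adjusted p = 0.848).

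Of the 10 cone counterparts, cKO was above control in 7 and below it in 3 (median log2 fold change 0.06). Gnb3, the most abundant, was at 277 ± 30.8 RPKM in cKO and 247 ± 31.9 RPKM in controls (SD, n = 3 each; limma adjusted p = 0.980), and it also had the smallest p among those with a higher mean. Cngb3, the cone channel's modulatory subunit, was at 1.63 ± 0.0387 RPKM in cKO and 1.84 ± 0.0369 RPKM in controls (SD, n = 3 each; limma adjusted p = 0.941). Of the 23 measured genes that fold, lipidate or move transducin and PDE6, cKO was above control in 9 and below it in 14 (median −0.04). Unc119, which carries lipidated transducin α, was the most abundant at 1933 ± 115 RPKM in cKO and 1884 ± 205 RPKM in controls. Icmt, which methylates prenylated proteins such as those of PDE6 and transducin γ, was at 198 ± 8.39 RPKM in cKO and 175 ± 6.27 RPKM in controls (SD, n = 3 each; limma adjusted p = 0.913). Pdcl, a co-chaperone in the assembly of G protein βγ pairs, was at 16.9 ± 2.02 RPKM in cKO and 19.2 ± 0.752 RPKM in controls (SD, n = 3 each; limma adjusted p = 0.931).

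The promoters of the members were compared as a feature the choice of genes did not use. Rod genes are known to be switched on by the homeodomain factor CRX together with the rod factor NRL, whose transcripts were at 282 ± 18.2 RPKM (Crx) and 829 ± 72.9 RPKM (Nrl) in cKO and at 278 ± 12.3 RPKM (Crx) and 862 ± 118 RPKM (Nrl) in controls (SD, n = 3 each). RefSeq windows of 250 bases before to 50 after a gene's start (GRCm38.p6) were matched for 6 of the 9 genes. Gnat1, Pde6a and Pde6g had no matched window and were not searched. The core CRX motif, TAATCC or its reverse complement GGATTA, on either strand was found in 3 of those 6, Gngt1, Cnga1 and Cngb1, and in 7.06% of 32851 windows of all genes. An NRL half-site, TGCTGA or TCAGCA, was found in 1 of the 6, Pde6b, and in 19.5% of all windows. The 3 windows that hold the CRX core are shown 5′ to 3′ on the gene's strand, with the motif in capitals. A match is not a binding site, and each window rests on 1 annotated start.
Gngt1, chr6:3993758-3994057, plus strand: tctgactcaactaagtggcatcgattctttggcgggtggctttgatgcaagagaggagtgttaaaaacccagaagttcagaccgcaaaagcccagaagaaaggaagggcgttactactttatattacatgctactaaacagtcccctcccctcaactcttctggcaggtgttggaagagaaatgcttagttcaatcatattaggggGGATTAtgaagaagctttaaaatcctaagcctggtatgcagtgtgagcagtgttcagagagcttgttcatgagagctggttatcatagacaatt
Cnga1, chr5:72642703-72643002, minus strand: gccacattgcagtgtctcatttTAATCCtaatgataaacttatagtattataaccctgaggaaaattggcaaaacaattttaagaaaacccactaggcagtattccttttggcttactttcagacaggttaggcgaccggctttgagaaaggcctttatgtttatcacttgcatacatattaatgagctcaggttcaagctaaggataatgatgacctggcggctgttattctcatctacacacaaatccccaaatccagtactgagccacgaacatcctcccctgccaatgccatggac
Cngb1, chr8:95306536-95306835, minus strand: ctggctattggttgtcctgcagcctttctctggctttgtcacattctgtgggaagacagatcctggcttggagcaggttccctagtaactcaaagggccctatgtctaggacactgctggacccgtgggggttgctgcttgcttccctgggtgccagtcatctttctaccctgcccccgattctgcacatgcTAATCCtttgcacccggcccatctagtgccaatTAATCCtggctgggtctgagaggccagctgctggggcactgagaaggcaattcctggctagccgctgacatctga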

How the data were processed

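Poly(A) RNA of mouse retina was sequenced in 6 libraries, with samples grouped by their titles. The authors deposited RPKM values per gene. The submitters' processing notes name GSNAP, HTSeq and the mm9 build, while the annotation, the length model and how multiple matches were handled were not stated. The labels' protocols describe no strand-keeping step, and no annotated exon of another gene overlapped an exon of a member in GENCODE M21. Gene coordinates come from GENCODE M21 (GRCm38), a later build than the authors', and only place the genes.

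Values were used as deposited. limma 3.58.1 in R 4.3.3, with a variance trend and no block, was fitted to log2(RPKM + 0.5) for the 12599 genes averaging 1 RPKM or more across libraries, with Benjamini-Hochberg adjustment over all of these (two-sided, threshold 0.05). Fold changes are on that scale, which understates changes of low genes. Ratios within a library were compared by exact two-sided permutation (scipy 1.17.1). The fit was tested on simulated reads with known changes. The simulation held no library deviation with length and planted no change as small as those of the members, so it does not bear on them. Each library is a pool of 4 mice, so p-values rest on variation among pools.

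Whole reads were recovered from the RPKM steps of all 19140 genes above 0, taking the smallest step as 1 read and setting the scale by annotated lengths of single-transcript genes. For each gene the shortest length that gave whole reads in all libraries was used. Deposited values were returned within 5.2e-06. The library size that entered RPKM came out as 24518872 (cKO 2), 35846244 (cKO 3), 15128203 (cKO 4), 34432874 (control 1), 38982103 (control 2) and 40523119 (control 3) reads.

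All 9 members are described. Of each other list the most abundant gene and the gene with the smallest p in each direction are named, with the genes in ratios. A gene that this rule also names is not reported here and was left out of the lists. The members and lists were chosen with earlier results of these data known, and the sequence searches and the length trend were added after the values were seen. Alternatives were pseudocounts of 0.1 and 1, no filter or one at 5 RPKM, median-of-ratios scaling, quantile normalization, no variance trend, limma voom on recovered reads, leaving out each library, a replicate block and the removal of a loess trend on model length (span 0.3).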

Additional observations from a re-analysis of the deposited data

How the results depend on the processing

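No member was called in any of the 17 alternatives. The number of genes called was 1 as reported, 3 with no filter, 2 with a mean of at least 5 RPKM, 3 under median-of-ratios scaling, 2 with no variance trend, 2 in limma voom and 3 with the length trend removed, and 1 without each library in turn. The median log2 fold change of the 9 moved to −0.13 under quantile normalization and lay between −0.090 and −0.0075 when 1 library was left out. Quantile normalization gave 0.011 for Gnb1 and −0.13 for Pde6b, whose signs turned, and it sets genes that hold the same rank in every library, such as Gnat1 and Pde6g, to 0 by construction. Removing the length trend gave −0.00031 for Gnat1. Leaving out 1 library gave log2 fold changes from −0.055 to 0.081 for Gnat1, −0.090 to 0.031 for Gnb1, −0.38 to 0.040 for Gngt1, −0.11 to 2.4e-05 for Pde6a, −0.039 to 0.12 for Pde6b, −0.16 to 0.13 for Pde6g, −0.27 to −0.11 for Cnga1, −0.15 to −0.040 for Cngb1 and −0.14 to 0.048 for Slc24a1. Of the 17 ratios, 6 changed sign in at least 1 alternative. Leaving out 1 library gave log2 differences from −0.21 to 0.039 for Pde6a over Pde6b, −0.13 to 0.0080 for Pde6g over Pde6b, −0.037 to 0.19 for Cngb1 over Cnga1, −0.021 to 0.32 for Slc24a1 over Cnga1 and −0.053 to 0.11 for Pde6b over Gnat1, and for the ratios whose groups stood apart −0.38 to −0.18 for Cnga1 over Cnga3, −0.27 to −0.12 for Gnb1 over Gnb3 and −0.090 to −0.026 for Pde6b over Pde6c. The cause of these shifts was not tested.

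The groups share the numbers 2 and 3, and nothing in the labels says that a number marks shared animals or a shared day. Deviations of same-numbered libraries correlated at 0.47 for number 2 and −0.05 for number 3 over 12599 genes. Libraries with different numbers were not compared in this way, so these values do not show pairing. What else same-numbered libraries share was not tested. The replicate block on these 4 libraries, with 1 residual degree of freedom, called 192 genes and 0 members, and the same 4 libraries without it called 1. For ratios the block gave 0.020 for Pde6a over Pde6b, −0.026 for Pde6b over Gnat1 and 0.035 for Gnat1 over Gnat2, all turned in sign. Both fits gave −0.031 for Gnat1 and −0.057 for Pde6b. The member with the fewest reads in a library had 3068.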
